A study of Mus musculus with 2 samples.

Results

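Excitatory lineage neurons and their precursors were rare in droplet single-cell transcriptomes of mouse cortex at postnatal day 5: 86 of 21126 kept barcodes. Members were chosen by their measured RNA. A kept barcode held 1000 or more unique molecular identifiers (UMIs, each a tag of 1 captured RNA molecule) and 500 or more genes, with no more than 20% of its UMIs from mitochondria. A member also had to hold UMIs of at least 3 of Neurod1, Neurod2, Neurod6, Tbr1, Eomes and Neurog2, of at most 1 of Gad1, Gad2, Dlx1, Dlx2, Dlx5 and Dlx6os1, and none of Trp73, Lhx1 or Lhx5. The mutant library (Mut, a Katnal2 mutation) gave 44 members of 10102 kept barcodes, and the wild-type library (WT) gave 42 of 11024. Tissue was taken apart with trypsin and a collagenase, and cells were sorted by flow cytometry before droplets were made. The labels name neither the sort marker nor the mutated part of Katnal2. The design text speaks of 3 replicates, but barcodes could not be traced to animals, so each genotype is 1 library and no difference between them was tested. A difference between these libraries cannot be told apart from one between animals, dissections or preparations. Intervals are 95% intervals and cover counting error only: exact Poisson for levels, Clopper-Pearson for shares and conditional binomial for ratios.

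In the developing cortex, radial glia give rise to intermediate progenitors that carry the T-box factor Eomes, and these divide into neurons that use glutamate. Neurog2 is the basic helix-loop-helix factor that starts this path, Neurod1, Neurod2 and Neurod6 are related factors of the young neurons, and Tbr1 is a T-box factor of early-born and deep layer neurons. The GABAergic genes of the rule mark interneurons born outside the pallium, and Trp73, Lhx1 and Lhx5 mark Cajal-Retzius cells of the cortical surface.

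The label was checked against genes that the rule did not use. Slc17a6, the vesicular glutamate transporter that loads glutamate into vesicles of young neurons, had UMIs in 27 of 44 Mut members (61.4%, 45.5 to 75.6) and 24 of 42 WT members (57.1%, 41.0 to 72.3). In GABAergic barcodes, which hold at least 3 of the 6 GABAergic and at most 1 of the excitatory genes, those shares were 0.413% in Mut and 0.176% in WT. Thinned to 2000 UMIs per barcode, Slc17a6 was found in 31.8% of Mut and 26.2% of WT members, against 0.169% of Mut and 0.0608% of WT GABAergic barcodes. The GABA transporter gene Slc32a1 had no UMI in either library's members, against UMIs in 27.4% of Mut and 23.05% of WT GABAergic barcodes. By 3 counts this allows members with a UMI up to 6.82% in Mut and 7.14% in WT, and sets no limit on members that express it. Slc17a6 does not separate the members from Cajal-Retzius barcodes (at least 2 of Trp73, Lhx1 and Lhx5), where it stood at 357 CPM (counts scaled to a total of 1000000 UMIs) in Mut and 299.9 CPM in WT, against 173 CPM in Mut and 166 CPM in WT members. Slc17a7, the glutamate transporter of mature cortical neurons, had UMIs in 1 Mut and 2 WT members. The label thus fits most members by these genes, while 6 of the 86 barcodes formed a group led by astroglial genes, which go against it.

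Katnal2 itself, the gene mutated in the Mut animals, had 0 UMIs in the members of both libraries. At their depth a count of 0 allows up to 10.2 CPM in Mut and 11.8 CPM in WT, above the free RNA levels of 3.87 and 2.11 CPM in Mut and WT. Free RNA here means the UMIs of barcodes with 10 to 100 UMIs. The level of Katnal2 in members therefore checks nothing about the genotype labels.

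Because Neurog2 and the Neurod factors bind short DNA words called E-boxes, the promoters of the members' leading genes were searched for CAGATG and its reverse complement CATCTG, within 250 bases before each annotated start. RefSeq promoters (GRCm38.p6) were found for 21 of the 30 leading genes, and 5 of these genes held the word (23.8%). Over all 27025 genes with a promoter sequence the share was 16.3%, and over 2861 genes measured in the members it was 10.2%. Those 21 genes have 41 annotated starts, so they had more chances of a match per gene than other genes. Shown here are 60-base windows of the gene furthest above the other barcodes (Sema3c), of the glutamate transporter gene Slc17a6 and of a factor of the rule (Neurod2), with the matched word in capitals. The matched words begin 200, 205 and 118 bases before an annotated start. The windows lie at chr5:17574589-17574648 on the plus strand, chr7:51624405-51624464 on the plus strand and chr11:98329731-98329790 on the minus strand. The annotated genes Sema3c and Slc17a6 begin at chr5:17574281 and chr7:51622006. Their windows thus lie inside the genes, before a later start, and not upstream of the first one.
Sema3c: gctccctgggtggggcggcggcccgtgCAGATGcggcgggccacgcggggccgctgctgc
Slc17a6: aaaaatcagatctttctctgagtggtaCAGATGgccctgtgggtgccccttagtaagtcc
Neurod2: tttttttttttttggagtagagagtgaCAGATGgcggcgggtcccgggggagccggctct
A match is a description of the letters in this window, not of binding.

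The genes of the rule are given as a description, since they chose the members. Neurod6 was the most widely found, with UMIs in 38 Mut and 32 WT members and levels of 359 CPM in each library. Neurod2 stood at 257 CPM in Mut and 264 CPM in WT, Neurod1 at 227 and 205 CPM in Mut and WT, and Tbr1 at 210 and 233 CPM in Mut and WT. Free RNA held at most 15.8 CPM of any of the 6 genes. Eomes reached 585 CPM in Mut and 296 CPM in WT, and Neurog2 156 CPM in Mut and 39.4 CPM in WT. Of the 86 members, 42 held both Eomes and Tbr1, 16 held both Eomes and Neurog2, and 46 held both Eomes and Neurod6. Just inside the threshold, 14 Mut and 19 WT members held exactly 3 of the 6 genes, and just outside it 12 Mut and 16 WT barcodes held 2. Of barcodes with 3 or more, 1 in Mut and 2 in WT were left out for holding 2 or more GABAergic genes.

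**Figure D1:**
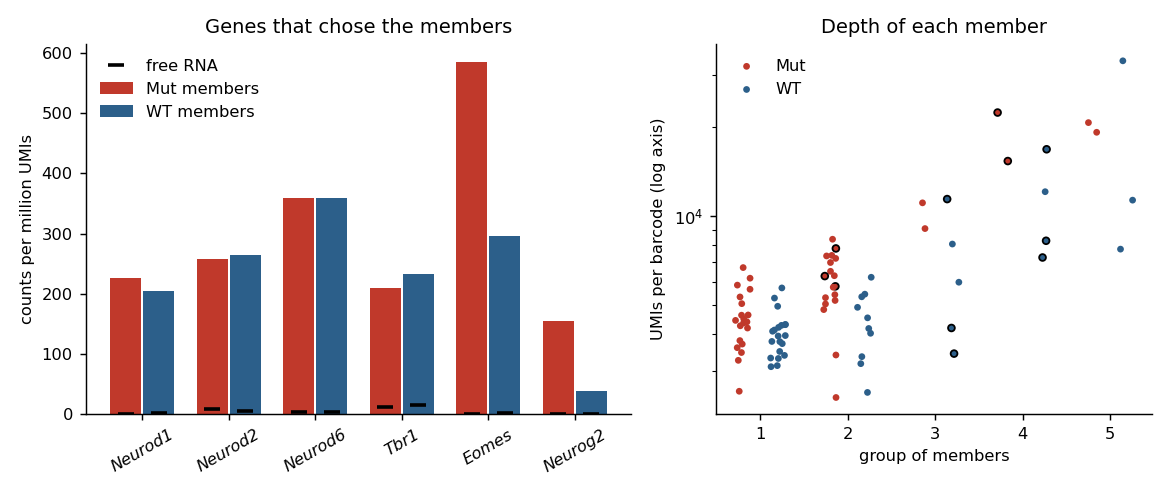
Left, level of the 6 genes that chose the members, in CPM, in Mut (red) and WT (blue) members, with black dashes for the level in free RNA; Eomes reached 585 CPM in Mut and 296 CPM in WT. Right, UMIs per barcode on a log axis for each member, by group 1 to 5 and library, with a black rim on barcodes marked as likely doublets; the deepest member is a WT barcode of 33475 UMIs in group 5.

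Members were of moderate depth. The median member held 5378 UMIs in Mut and 4240 in WT, from 2438 to 22383 in Mut and from 2536 to 33475 in WT. Mitochondrial UMIs made up a median of 2.62% in Mut and 3.64% in WT members. All members of a library together held 295498 UMIs in Mut and 253758 in WT. Scrublet, a doublet caller, placed 5 Mut and 6 WT members among the barcodes it scored highest. No member barcode was shared between the libraries, and 39 kept barcodes were. Xist alone was found in 25 Mut and 15 WT members and Y-linked UMIs alone in 16 and 16, so RNA of both sexes was present in each library.

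The genes furthest above the other kept barcodes included genes of neuronal migration, axon growth and glutamate release. Of 3578 genes with at least 30 UMIs in the members, 482 (13.5%) were at least 2-fold higher in the members of both libraries, and 123 (3.44%) at least 2-fold lower; ratios were taken after adding 5 CPM. The filter on members' UMIs limits the second count, since a gene absent from the members could not pass it. The first in rank was Sema3c, a secreted semaphorin that guides axons and migrating neurons, at 406 CPM in Mut members against 3.75 CPM in the other Mut barcodes, and at 406 CPM in WT members against 3.499 CPM in the other WT barcodes. Its UMIs were found in 37 Mut and 33 WT members. Slc17a6 followed, at 173 CPM against 2.18 CPM in Mut and at 166 CPM against 2.34 CPM in WT. The lower counting bounds of both genes, 331 CPM for Sema3c and 119 CPM for Slc17a6 in WT members, lay far above the other barcodes.

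RNA-binding and transcription factors of neuronal differentiation came next. Rbfox3, a splicing factor known as the neuronal antigen NeuN, stood at 142 CPM in Mut members against 1.93 CPM in other Mut barcodes, and at 240 CPM in WT members against 2.30 CPM in other WT barcodes. Rbfox1, a splicing factor of the same family, had 102 CPM in Mut and 122 CPM in WT members, and Srrm4, which promotes neuronal microexons, had 298 and 252 CPM in Mut and WT members. Bhlhe22, a helix-loop-helix factor of cortical projection neurons, stood at 166 CPM in Mut and 122 CPM in WT members and at no more than 1.57 CPM in the pooled other kept barcodes, though at 123 CPM in Mut and 117 CPM in WT Cajal-Retzius barcodes. Its UMIs were found in 19 Mut and 12 WT members, and 30 of the 80 lay in 2 barcodes of group 5. Myt1l, a zinc finger factor that represses other cell fates in neurons, had 332 and 386 CPM in Mut and WT members. Zbtb18, a repressor needed for cortical neuron development, had 701 and 808 CPM in Mut and WT members.

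Among signalling, axonal and synaptic genes, Igfbpl1, a secreted growth factor-binding protein found in newborn neurons, reached 2724 CPM in Mut and 2676 CPM in WT members, against 88.1 CPM in other Mut and 121 CPM in other WT barcodes. Pcp4, a calmodulin-binding peptide, stood at 1015 CPM in Mut and 1166 CPM in WT members, below the 1862 CPM in Mut and 1919 CPM in WT Cajal-Retzius barcodes. Unc5d, a netrin receptor of migrating cortical neurons, had 240 and 221 CPM in Mut and WT members and no UMI in Cajal-Retzius barcodes. Kif5c, a motor of axonal transport, had 420 and 457 CPM, Cplx2, a regulator of vesicle fusion, 267 and 319 CPM, and Rab3a, a GTPase of synaptic vesicles, 325 and 378 CPM in Mut and WT members. Rab3a was higher in Cajal-Retzius barcodes, at 769 CPM in Mut and 766 CPM in WT, and 8 of the 30 leading genes were higher there than in the members of both libraries. The 30 leading genes also held Tenm4, Elavl2, Mturn, Hs3st1, Lmo1, Chgb, Kctd4, Plcb1, Lingo1, Mllt11, Enc1, Calb2, Grin2b and the RNA gene Gm26871. Syt1, the calcium sensor of vesicle release, was in this rank too, but its UMIs lay in 2 Mut and 3 WT members, all of group 5. Group 5 also held 72 of the 116 UMIs of Chgb and 40 of the 76 of Grin2b.

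**Figure D2:**
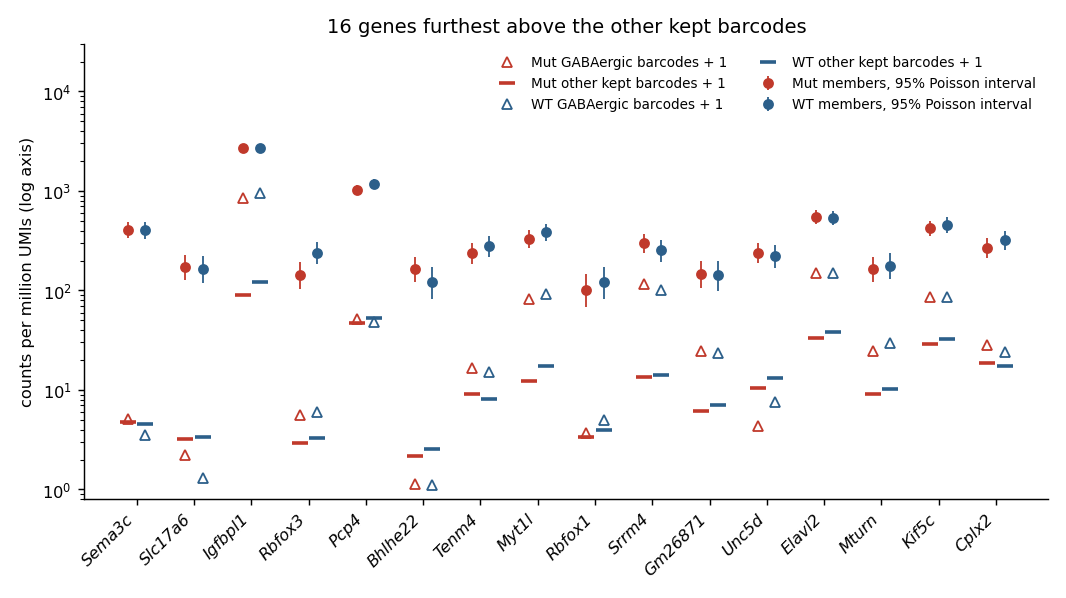
Level of the 16 genes furthest above the other kept barcodes, on a log axis in CPM, in members (dots with 95% Poisson intervals), GABAergic barcodes (triangles, 1 CPM added) and other kept barcodes (dashes, 1 CPM added), Mut in red and WT in blue. Sema3c stood at 406 CPM in the members of both libraries and at no more than 4.10 CPM in the other groups, while Igfbpl1 was also abundant in GABAergic barcodes.

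Set against the GABAergic barcodes, which are young neurons of another origin (1211 in Mut, 1705 in WT), 280 genes (7.83%) were at least 2-fold higher in the members of both libraries and 51 (1.43%) at least 2-fold lower. Sema3c, Slc17a6 and Bhlhe22 stayed at the top, at no more than 4.10 CPM in GABAergic barcodes of either library. Kctd4 stood at 186 CPM in Mut and 260 CPM in WT members, against 3.73 CPM in Mut and 5.14 CPM in WT GABAergic barcodes. Nrn1, a membrane-linked protein that promotes neurite growth, had 203 and 146 CPM in Mut and WT members, against 5.35 and 2.41 CPM in Mut and WT GABAergic barcodes. Lhx2, a factor of cortical identity, stood at 487 CPM in Mut and 406 CPM in WT members, against 62.6 CPM in Mut and 46.6 CPM in WT GABAergic barcodes. Igfbpl1 differed less, at 858 CPM in Mut and 952 CPM in WT GABAergic barcodes.

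Read by gene lists, 9 of 9 measured markers of migrating newborn neurons were at least 2-fold above the other kept barcodes in both libraries, 8 of 8 without the rule's Neurod1. They include Sox11, a factor of neuronal differentiation, at 4169 CPM in Mut and 3866 CPM in WT members, and Dcx, the microtubule protein doublecortin, at 541 and 682 CPM in Mut and WT members. Of 22 measured genes of the neuronal cytoskeleton and growth cone 19 were above, of 14 pallial transcription factors 11, of 15 synaptic vesicle genes 12, of 16 axon guidance genes 12 and of 8 genes of glutamatergic transmission 6. For intermediate progenitor markers the count was 4 of 7, and 2 of 5 without the rule's Eomes and Neurog2: Insm1 (a zinc finger factor of delaminating progenitors) and Sstr2 (a somatostatin receptor). Upper layer markers gave 2 of 6 (Pou3f2 and Pou3f3, POU factors) and deep layer markers 2 of 4 (Pcp4 and Bcl11b). Of the 65 UMIs of Bcl11b in the members, 57 lay in group 5. Bcl11b was found in 15.9% of Mut and 11.9% of WT members, against 51.9% of Mut and 48.9% of WT GABAergic barcodes. Pcp4, as given above, was higher in Cajal-Retzius barcodes than in the members of both libraries. Astrocyte markers were below in 5 of 5 and radial glia markers in 5 of 6; cholesterol synthesis genes were below in 4 of 10. In these counts 13.5% of all genes measured were above and 3.44% below. Against the GABAergic barcodes, 7.83% of all genes measured were at least 2-fold higher in the members of both libraries. By that measure 3 of 22 cytoskeleton and growth cone genes, 4 of 9 newborn neuron markers and 8 of 14 pallial factors were higher. Of synaptic vesicle genes 13 of 15 were, of axon guidance genes 10 of 16 and of glutamatergic transmission genes 6 of 8. These counts are of pooled members and need not hold in each group. Synaptic vesicle genes summed to 6925 CPM in group 5, 2691 CPM in group 1 and 1597 CPM in group 2. Their sums were 1560 CPM in Mut and 1520 CPM in WT GABAergic barcodes. Glutamatergic transmission genes summed to 5053, 1753 and 941 CPM in groups 5, 1 and 2, against 694 CPM in Mut and 614 CPM in WT GABAergic barcodes.

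Genes of regional identity were mixed. Zbtb20, a zinc finger factor of hippocampal neurons that is also found in astroglia, had UMIs in 80 of the 86 members, at 2183 CPM in Mut and 2416 CPM in WT. Meis2, a homeodomain factor of the striatum and of GABAergic precursors, was found in 84 members, at 1702 CPM in Mut and 1379 CPM in WT. Both were also found in at least 92.1% of GABAergic barcodes, so their detection does not separate the members from GABAergic barcodes. Emx1, a factor of the dorsal cortex, had UMIs in 33 of 86 members, against 1.16% of Mut and 1.06% of WT GABAergic barcodes. The layer markers Bcl11b (12 members), Fezf2 (12) and Cux2 (18) were in few members. Prox1, a factor of dentate granule cells, was in 12, and Tbx21, a marker of mitral and tufted cells of the olfactory bulb, in 1.

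Clustering of the members on their own gave 5 groups, which are described by their leading genes and given no cell type name. The rule's genes entered this clustering, so what defines a group is no test. Group 1 (20 Mut and 20 WT members) was led by Kctd4 (533 CPM, against 79.2 CPM in the other members), Nos1 (neuronal nitric oxide synthase, 258 against 50.2 CPM), the adhesion protein gene Alcam (405 against 89.8 CPM) and the semaphorin receptor genes Plxna2 (358 against 79.2 CPM) and Plxna4 (188 against 34.3 CPM). Neurod2 stood at 516 CPM and Myt1l at 686 CPM in it. Group 2 (18 Mut and 10 WT) held the highest progenitor RNA, with Eomes at 981 CPM (251 CPM in the other members), Neurog2 at 278 CPM (35.1 CPM) and Mfap4 at 99.4 CPM (10.0 CPM). First in its rank was the haemoglobin gene Hbb-bs, found in 12 of its 28 barcodes, with 86 of its 94 UMIs there in Mut. Of all haemoglobin UMIs of the Mut members, 87.4% lay in 1 barcode. Egr1, an immediate early factor, stood at 1199 CPM in group 2.

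Group 3 (2 Mut and 5 WT) was led by histone and division genes. Its genes of G2 and M phase summed to 5017 CPM, against 41.0 CPM in group 1 and 265 CPM in group 2, and Mki67, a protein of cycling cells, stood at 695 CPM with UMIs in all 7 barcodes. Eomes was at 620 CPM there. Group 5 (2 Mut and 3 WT) was led by genes of maturing neurons: Nrgn, a calmodulin-binding postsynaptic protein, the neurofilament genes Nefl and Nefm, Mef2c, a factor of maturing neurons, at 1926 CPM, and Bcl11b at 617 CPM. Nrgn stood at 376 CPM in its Mut and 3503 CPM in its WT barcodes, Nefl at 125 CPM in Mut and 1770 CPM in WT, and Nefm had no UMI in Mut and 971 CPM in WT; 1 WT barcode held most of these UMIs. Eomes, Neurog2, Slc17a6 and Zbtb20 had no UMI in group 5. Its barcodes were deep, with medians of 19946 UMIs in Mut and 11321 UMIs in WT.

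Group 4 (2 Mut and 4 WT) went against the label. It was led by Id3, Fabp7 and Apoe, genes of astroglia, with Fabp7 at 16850 CPM and radial glia markers at 20223 CPM in sum, against 680 CPM in group 1. Scrublet marked 2 of its 2 Mut and 3 of its 4 WT barcodes, against none in group 1; it also marked 3 Mut barcodes of group 2 and 3 WT barcodes of group 3. Of its 4 WT barcodes, 3 held both Xist and Y-linked UMIs, which no other member did. These 6 barcodes held 12.8% of the members' UMIs in Mut and 17.5% in WT. 

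**Figure D3:**
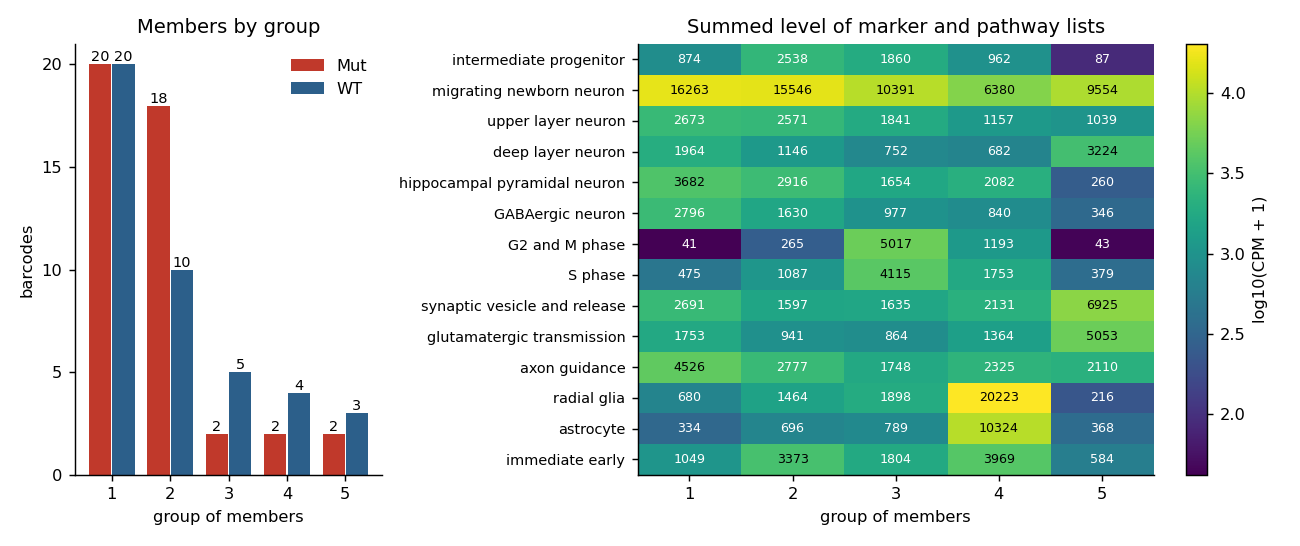
Left, number of members in groups 1 to 5 by library (Mut red, WT blue). Right, summed level of marker and pathway lists in each group, over both libraries, in CPM (colour on a log10 scale); group 3 stands out for division genes (5017 CPM), group 4 for radial glia genes (20223 CPM) and group 5 for synaptic genes (6925 CPM).

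The shares of excitatory lineage cells were close in the libraries, and the genotypes were not tested. Members were 0.436% of kept Mut barcodes (0.317 to 0.584) and 0.381% of kept WT barcodes (0.275 to 0.515), a ratio of 1.14 (0.732 to 1.79). GABAergic barcodes were 11.99% in Mut and 15.5% in WT, a ratio of 0.775 (0.719 to 0.835), and Cajal-Retzius barcodes 0.307% in Mut and 0.408% in WT, a ratio of 0.752 (0.460 to 1.21). The sort, the dissection and the depth can set such shares, and their part was not tested. Within the members, 77.3% in Mut (34 of 44) and 71.4% in WT (30 of 42) held Eomes or Neurog2, a ratio of 1.08 (0.643 to 1.83). Dividing members, with UMIs of at least 5 of 25 genes of G2 and M phase, were 5 in Mut and 5 in WT. Group 2 took 40.9% of Mut members (26.3 to 56.8) and 23.8% of WT members (12.1 to 39.5), a ratio of 1.72 whose interval of 0.752 to 4.17 includes 1.

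Most genes had similar levels in the libraries. Of the 3578 genes measured, 74 (2.07%) were at least 2-fold higher in Mut and 54 (1.51%) at least 2-fold lower, 3.58% in all, and the median log2 ratio was 0.02. Scaled by trimmed means (TMM), 60 were higher and 69 lower. Slc17a6 and Igfbpl1 had Mut over WT ratios of 1.04 and 1.02. Without groups 4 and 5 the counts were 46 higher and 33 lower of 2468 genes.

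Of the 6 excitatory genes of the rule, Neurog2 and Eomes had the largest ratios of Mut over WT. Both are given as a description. Neurog2 had 46 UMIs in 13 Mut members and 10 UMIs in 6 WT members, 156 CPM in Mut (114 to 208) and 39.4 CPM in WT (18.9 to 72.5), a ratio of 3.95 (1.97 to 8.78). Eomes had 173 UMIs in 32 Mut members and 75 in 29 WT members, 585 CPM in Mut (501 to 679) and 296 CPM in WT (232 to 370), a ratio of 1.98 (1.502 to 2.63). By sex, the log2 ratio of Neurog2 was 3.37 in female and 1.13 in male members, and that of Eomes 1.07 and 0.81 in female and male members. Those of Neurog2 rested on 23 Mut UMIs and 1 WT UMI in females and on 22 Mut and 6 WT UMIs in males. Within group 2 the log2 ratios were 1.55 for Neurog2 and 0.62 for Eomes, against 1.86 and 0.97 over all members. Both genes chose the members and entered the clustering, so these splits are no check of the difference. Tbr1 had a ratio of 0.902 (0.622 to 1.31) and Neurod1 had log2 ratios of 1.13 among females and -1.30 among males. Without the genes of the rule, 5 intermediate progenitor markers were measured, of which 1 was at least 2-fold higher in Mut, against 2.07% of all genes: Btg2, a gene that slows the cell cycle and is also an immediate early gene. Their log2 ratios had a median of 0.45, and the listed genes without the rule's summed to 920 CPM in Mut and 559.6 CPM in WT, a ratio of 1.64 (1.34 to 2.03). Of the 272 Mut UMIs in that sum, Btg2 gave 35 in the 2 Mut barcodes of group 4 and 30 in the other Mut members. This sum was not taken without group 4.

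Immediate early genes were higher in Mut members for 4 of 8 measured, Dusp1, Btg2, Egr1 and Fos, against 2.07% of all genes, with a median log2 ratio of 1.07. In group 4 lay 52 of the 92 Mut UMIs of Fos and 35 of the 65 of Btg2, and without that group the log2 ratios were 1.26 for Fos, 1.34 for Btg2, 1.18 for Dusp1 and 1.94 for Egr1. Egr1 had 238 UMIs in 24 Mut members and 78 in 22 WT members, 805 CPM in Mut and 307 CPM in WT. Its ratio was 2.62 (2.02 to 3.43), its log2 ratio 3.01 in female and 1.48 in male members, and no barcode held more than 23 of its UMIs. In free RNA Egr1 stood at 580 CPM in Mut and 549 CPM in WT, above the level in WT members, and in the other kept barcodes at 775 CPM in Mut and 667 CPM in WT. The whole list summed to 2714 CPM in Mut and 1427 CPM in WT members. It was higher in Mut outside the members too, so the direction is not particular to them. GABAergic barcodes held 3223 CPM in Mut and 2478 CPM in WT, and the other kept barcodes 5896 CPM in Mut and 5142 CPM in WT. Jun had 426 CPM in Mut and 213 CPM in WT, at a ratio of 2.004 (1.45 to 2.81). Genes of dissociation stress, on another list, summed to 6687 CPM in Mut and 6451 CPM in WT, a ratio of 1.04. Tissue handling was not recorded per library, and its part was not tested.

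Other genes in the highest ranks in Mut included a cell cycle kinase and a patterning factor. Cdk6, a cyclin-dependent kinase of early G1 phase, had 47 UMIs in 18 Mut members and 13 in 11 WT members, 159 CPM in Mut and 51.2 CPM in WT, a ratio of 3.10 (1.65 to 6.26). In group 2 it had 29 Mut and 4 WT UMIs, and in group 1 it had 7 in Mut and 7 in WT. Nr2f1, a nuclear receptor that patterns the cortex along its length, had 223 CPM in Mut and 106 CPM in WT, a ratio of 2.099 (1.32 to 3.42). Frmd4b, at 142 CPM in Mut and 63.1 CPM in WT, the ribosome assembly gene Emg1, at 183 and 82.8 CPM in Mut and WT, and Afdn, whose protein afadin links adherens junctions to actin, at 149 and 70.9 CPM in Mut and WT, followed with ratios of 2.25, 2.21 and 2.099. The histone and replication genes Hist1h2ap, Hist1h1b and Pclaf and the condensin gene Smc4 rested on few barcodes: Hist1h1b had 66 of its 179 Mut UMIs and 49 of its 80 WT UMIs in 1 barcode each. Without groups 4 and 5 their log2 ratios were 0.43, 0.23, 0.21 and 0.55. Rnf165 and Cadm4 completed the 12 highest, with log2 ratios of 0.93 and 0.88.

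Among the lowest genes in Mut, several had a large share of their WT UMIs in 1 barcode. Rprm, a gene of deep layer neurons whose protein reprimo arrests the cell cycle, had 4 UMIs in 4 Mut members and 55 UMIs in 12 WT members, 13.5 CPM in Mut and 217 CPM in WT. Its ratio was 0.0625 (0.0164 to 0.169), and 1 WT barcode of 33475 UMIs held 25 of the 55. Without groups 4 and 5 its log2 ratio was -2.001, against -3.58 with them, from 3 Mut and 11 WT UMIs. The free RNA level of Rprm was 48.6 CPM in Mut and 55.7 CPM in WT. The adhesion gene Cadm2 had 60.9 CPM in Mut and 197 CPM in WT, with 33 of 50 WT UMIs in 1 barcode. Ccl27a, Caly and Mgst3 had ratios of 0.318, 0.334 and 0.411, and stood at 487, 498 and 422 CPM in group 5, against 111, 11.7 and 82.1 CPM in group 1. Tspan13 was spread more widely, with 24 UMIs in 16 Mut members and 53 in 27 WT members, at a ratio of 0.389 (0.230 to 0.641) and a log2 ratio of -1.51 in female members and -0.97 in male ones. Opcml, Calb2, Emc6, Pcdh9, Ly6h and Pop5 made up the rest of the 12, with log2 ratios from -1.23 to -1.004.

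Calb2, the calcium-binding protein calretinin, had opposite directions in the sexes. It had 125 CPM in Mut and 288 CPM in WT, from 37 UMIs in 10 Mut members and 73 UMIs in 11 WT members. In female members the counts were 35 UMIs in 9 Mut members and 7 UMIs in 1 WT member. In male members they were 2 UMIs in 1 Mut member and 42 UMIs in 7 WT members. The WT side in females and the Mut side in males thus each rest on 1 member, and that difference was not tested. Nrgn, Nefl and Nefm lay outside the rule for named genes and were chosen after their values were seen. Nrgn had 17 UMIs in Mut and 185 UMIs in WT, of which 178 lay in the WT barcode of 33475 UMIs; that barcode also held 92 of 93 WT UMIs of Nefl and 50 of 51 of Nefm. In Mut, Nefl had 5 UMIs and Nefm none. Of the 24 named genes, all kept their direction within groups 1 to 3 pooled, and 13 of them were still 2-fold apart there. Within group 1 alone 18 kept it, 6 of them 2-fold apart, and within group 2 alone 23 and 21. Female members alone gave the same direction for 23, of which 20 were 2-fold apart, and male members alone for 18, of which 9 were. The 24 genes were picked for their ratios in these same members, so these splits are no check of the differences. A kept direction can also be slight, as for Ly6h at a log2 ratio of -0.06 within groups 1 to 3.

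**Figure D4:**
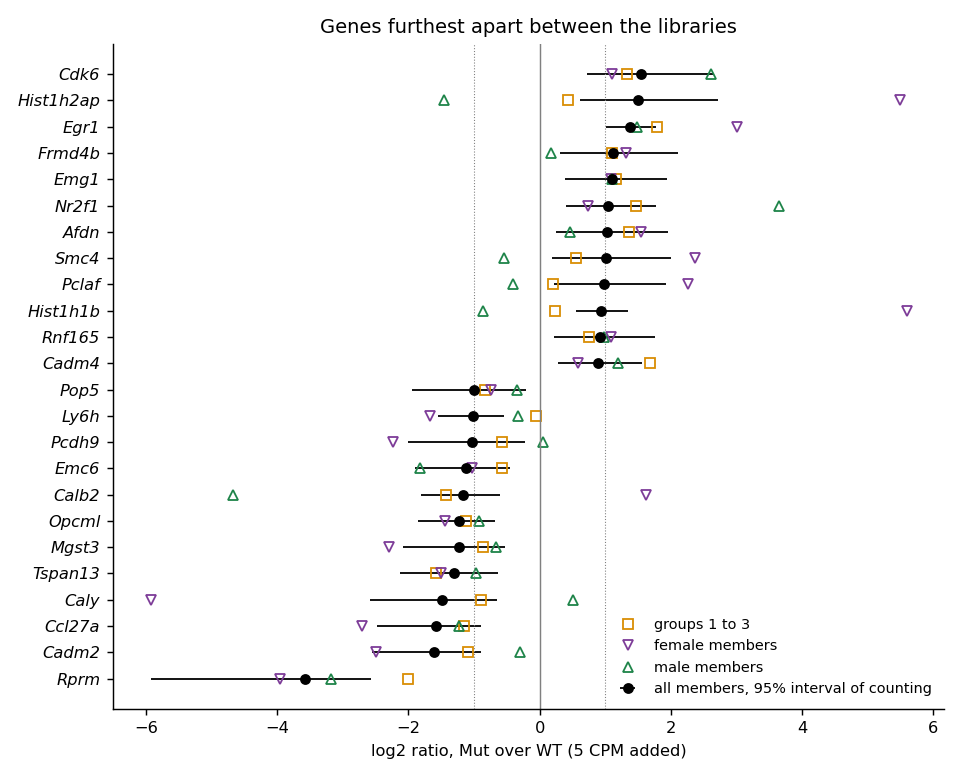
Log2 ratio of Mut over WT (5 CPM added) for the 12 highest and 12 lowest genes by the naming rule: black dots for all members with the 95% counting interval of the plain ratio, squares for groups 1 to 3, triangles for female (down) and male (up) members. Cdk6, Egr1 and Emg1 lay above 1 and Rprm and Ccl27a below -1 in each of the subsets shown, while Calb2 and Hist1h2ap lay on opposite sides of 0 in the sexes. The genes were picked for their ratios in these same members, so the subsets are no check.

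**Figure D5:**
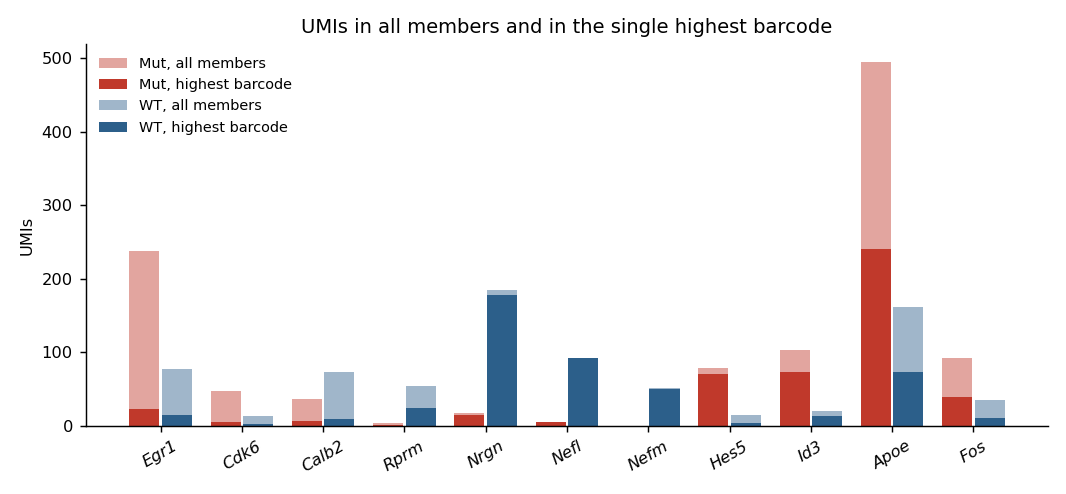
UMIs of 11 genes over all members (pale) and in the single member that held the most (dark), Mut red and WT blue. Nrgn, Nefl and Nefm in WT and Hes5 and Id3 in Mut came almost wholly or mostly from 1 barcode, whereas Egr1 and Cdk6 in Mut were spread over many.

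Markers of other cell types differed between the libraries too. Radial glia markers summed to 5025 CPM in Mut members and 2498 CPM in WT members, a ratio of 2.01 (1.83 to 2.21), and astrocyte markers to 2626 CPM in Mut and 1222 CPM in WT, a ratio of 2.15 (1.88 to 2.46). Of 6 measured radial glia markers 2 were 2-fold higher, Hes5 and Fabp7. Of 5 measured astrocyte markers 3 were, Aldoc, Apoe and Aqp4, against 2.07% of all genes. Hes5, Aldoc and Aqp4 passed the minimum of UMIs per gene only through group 4, which held 85, 53 and 32 of their UMIs. Without that group they had 5, 9 and 4 UMIs in Mut and 4, 1 and 2 in WT. Set against 2.07%, these counts thus say nothing of the members outside group 4. The log2 ratios without group 4 were 0.02 for Hes5, -0.08 for Fabp7, 0.05 for Apoe, 2.03 for Aldoc and 0.50 for Aqp4. A Mut barcode of 15346 UMIs in group 4 held 70 of the 79 Mut UMIs of Hes5 and 241 of the 495 of Apoe. Without group 4 the summed log2 ratios were 0.12 for radial glia and 0.21 for astrocyte markers, against 1.01 and 1.10 with it. Free RNA held more Fabp7 (18938 CPM in Mut, 17163 CPM in WT) than the members did (4041 CPM in Mut, 1848 CPM in WT). Haemoglobin RNA summed to 728 CPM in Mut and 146 CPM in WT, with 87.4% of the Mut UMIs in 1 barcode, and 94.1% of the 34 endothelial marker UMIs in Mut also lay in 1 barcode. Oligodendrocyte precursor markers stood at 88.0 CPM in Mut and 327 CPM in WT, from 26 Mut and 83 WT UMIs, with 38.6% of the WT UMIs in 1 barcode. By group they stood at 620 CPM in group 3 and 779 CPM in group 4, against 17.6 CPM in group 1 and 53.0 CPM in group 2, and without group 4 they had 9 Mut and 36 WT UMIs. Markers of microglia, fibroblasts, ependymal cells and choroid plexus had 0 to 4 UMIs per library. Their part in the single-gene values was not tested beyond the values without groups 4 and 5.

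Several lists of neuronal function had ratios near 1, and others were lower in Mut. Newborn neuron markers summed to 12575 CPM in Mut and 13257 CPM in WT (ratio 0.949, 0.905 to 0.994), pallial transcription factors gave a ratio of 0.956 (0.910 to 1.005), synaptic vesicle genes 0.995 (0.901 to 1.10) and axon guidance genes 1.05 (0.949 to 1.15). Among these 4 lists the genes past 2-fold were Nr2f1 and the ephrin gene Efnb1, at 108 CPM in Mut and 43.3 CPM in WT. Genes of glutamatergic transmission summed to 1563 CPM in Mut and 2380 CPM in WT, with 45.03% of the WT UMIs in 1 barcode; their log2 ratio was -0.60 with all members and -0.19 without group 5. Genes of the cytoskeleton and growth cone gave a ratio of 0.880 (0.853 to 0.907), with 2 of 22 at least 2-fold lower, against 1.51% of all genes, and a log2 ratio of -0.18 with all members and -0.048 without group 5. Neuronal adhesion genes gave 0.832 (0.731 to 0.947), with 2 of 9 lower. The growth cone gene Stmn2 stood at 849 CPM in Mut and 1683 CPM in WT, with 113 of 251 UMIs in 1 Mut barcode and 199 of 427 in 1 WT barcode. Transcripts of the mitochondrial genome summed to 29408 CPM in Mut and 36649 CPM in WT, a ratio of 0.802 (0.779 to 0.826). They were lower in Mut outside the members too, so this is not particular to them. GABAergic barcodes held 27046 CPM in Mut and 33416 CPM in WT, and the other kept barcodes 36499 CPM in Mut and 42676 CPM in WT. Nuclear genes of oxidative phosphorylation gave a ratio of 1.04 (0.989 to 1.08) in the members.

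The study's title names vesicular trafficking and cell polarity. No listed katanin, trafficking or polarity gene with at least 30 UMIs was past 2-fold in the members, against 3.58% of all genes measured. With so few listed genes measured, a count of 0 is near that share. The junction gene Afdn, given above, is on none of these lists. Of 11 katanin and microtubule-severing genes 4 were measured: Camsap1 and Camsap2, which protect microtubule minus ends, at log2 ratios of 0.86 and 0.64, Katnal1, a katanin paralogue of Katnal2, at 0.20 and Spast, the severing enzyme spastin, at -0.81. The list summed to 477 CPM in Mut and 449 CPM in WT, a ratio of 1.06 (0.824 to 1.37). Of 14 measured SNARE and endosome genes none was past 2-fold; their median log2 ratio was -0.10 and their summed ratio was 0.940 (0.830 to 1.06); Rab11fip2, an effector of recycling endosomes, was lowest at -0.79. Of 24 cell polarity genes 4 were measured, with Celsr2, a cadherin of planar polarity, lowest at -0.79. For autism risk genes, a condition the title also names, the median log2 ratio over 21 measured was 0.03. Of the 21, 8 were above the other kept barcodes in both libraries, among them Tbr1 (a gene of the rule), Bcl11a, Grin2b and Scn2a. Without Tbr1 the count was 7 of 20, against 13.5% of all genes measured. Against GABAergic barcodes 6 of the 21 were higher, where 7.83% of all genes were. Foxp1 was the only 1 of the 21 past 2-fold between the libraries, near the 3.58% of all genes. It stood at 33.8 CPM in Mut and 126 CPM in WT from 10 and 32 UMIs, with 19 of the WT UMIs in 1 barcode.

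The ribosomal protein gene Rpl29, at 259 CPM in other Mut and 671 CPM in other WT barcodes, had 237 CPM in Mut and 552 CPM in WT members, a ratio of 0.429 (0.318 to 0.576). It was lower in Mut in each of the 5 groups, at 232 CPM in Mut and 674 CPM in WT for group 1 and at 308 CPM in Mut and 595 CPM in WT for group 2. Rpl29 lay outside the rule for named genes and was chosen with earlier results of these data known.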

How the data were processed

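Droplet single-cell RNA was measured in 1 Mut and 1 WT cortex library, both at postnatal day 5. The authors deposited UMI counts per gene and barcode, not normalized, for 32285 genes and all barcodes; the file headers name Cell Ranger 4, and the submitters' processing notes name Cell Ranger, STAR and GRCm38. The libraries held 97891513 UMIs in Mut and 93664707 in WT. Counts were summed over the members of a library and scaled to CPM, and log2 ratios were taken after adding 5 CPM, for genes with at least 30 UMIs over both libraries. With 1 library per genotype no test was made, and a fold of 2 stood in for a threshold. The members and lists were chosen with earlier results of these data known.

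For Mut against WT the text names the 12 highest and 12 lowest log2 ratios among genes with at least 50 UMIs, at least 100 CPM in the higher library and UMIs in at least 10% of its members, whose free RNA level in that higher library did not exceed that in its members; the other library was not held to this. Mitochondrial, haemoglobin, sex-linked and rule genes were left out. For the profile it names the 30 genes with the highest lower ratio of the libraries, and from the gene lists the extreme members; a few of these genes are not reported here. Members were clustered on 1000 variable genes, 10 principal components and 10 neighbours (Leiden, resolution 0.5). Doublets were kept; Scrublet's highest scores were marked at 0.8% of barcodes per 1000 barcodes, and an alternative left them out. Female members held Xist UMIs only and male members Y-linked UMIs only. Other thresholds, subsets, scalings and filters were tried. Python 3.11.15, scanpy 1.11.5, numpy 2.4.6, scipy 1.17.1, pandas 2.3.3 and matplotlib 3.10.9 were used, and edgeR 4.0.16 for TMM factors alone.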

Additional observations from a re-analysis of the deposited data

Results flagged for a closer look

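For 4 gene lists and 1 gene, Mut was at least 2-fold higher than WT in female members and at least 2-fold lower in male members; none of these differences between the sexes was tested. Calb2 had a log2 ratio of 1.63 in female and -4.68 in male members, but its UMIs lay in only 1 female WT member and 1 male Mut member. The Cajal-Retzius cell list, which holds Calb2, had 1.44 in female and -4.22 in male members, and the dentate granule lineage list, which holds it too, had 1.09 and -2.15 in female and male members. The hippocampal pyramidal neuron list had 1.02 in female and -1.04 in male members. Genes of G2 and M phase had 2.71 in female and -1.69 in male members, with 3 Mut and 1 WT dividing female members and 2 Mut and 2 WT dividing male members.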

How the results depend on the processing

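No paired analysis was possible because each genotype has 1 library. Of the shares, that of excitatory lineage cells moved to a ratio of 1.91 with the rule applied to barcodes thinned to 1000 UMIs, from 7 Mut and 4 WT cells. Genes at least 2-fold higher in Mut (74) numbered 48 without the highest Scrublet scores, 15 after thinning, 128 in female members, 46 without groups 4 and 5, 407 with a minimum of 10 UMIs and 1186 with none. Genes at least 2-fold lower (54) numbered 106 with at least 2 excitatory genes, 5 after thinning, 109 in female members, 33 without groups 4 and 5, 312 with a minimum of 10 UMIs and 1051 with none. Of 33 lists, 6 were past 2-fold, against 2 without the highest Scrublet scores, 3 after thinning and 12 in female members. Genes above the other barcodes (482) numbered 278 with at least 4 excitatory genes, 41 after thinning, 779 with a minimum of 10 UMIs and 859 with none. These log2 ratios changed sign: the Cajal-Retzius cell list (1.44 in female members), radial glia markers (-0.30 after thinning, -0.036 without groups 4 and 5), haemoglobin genes (-0.62 without the highest Scrublet scores, -0.32 with 4 excitatory genes, -0.71 with no GABAergic gene), Hist1h2ap (-1.46 in males), Emg1 (-0.00034 after thinning), Smc4 (-0.085 with 2 excitatory genes, -0.54 in males), Ly6h (2.49 after thinning), Pcdh9 (0.045 in males), Calb2 (1.63 in females) and Caly (2.85 after thinning, 0.50 in males). Against the other barcodes, Syt1 went to -1.41 with 4 excitatory genes, after thinning, without group 5 and without groups 4 and 5, and Lingo1 to -1.80 after thinning. The settings without groups 4 or 5, the deepest members or the rule's genes were chosen after seeing the data, and the causes were not tested. With 86 cells, low genes and small groups rest on few UMIs.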
